A study of Homo sapiens with 4 samples.

Results

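The 10 genes CD24, CD44, PROM1, ALCAM, EPCAM, ALDH1A1, DCLK1, MSI1, BMI1 and SOX9 have been proposed as markers of stem-like cells in colon carcinoma, and they were followed from monolayer to spheroid culture of HCT116 cells. They were chosen by name, with earlier results of these data known. A member was measured where a probe set, the group of short probes that reads a transcript, carried its symbol alone. Of 54675 probe sets on the array, 32 met this rule and covered 9 of the 10 genes. The only probe set of BMI1 is annotated to 2 genes and was passed over, so BMI1 was not analysed here. Of the 9 genes, 7 were bright enough to be tested among 14349 genes. ALDH1A1 and MSI1 were not. A gene or probe set is called below the filter level where its mean log2 signal over the 4 arrays was, and single arrays can exceed that level.

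The established line HCT116 comes from a human colon carcinoma. Its 2 versions, HCT116 wt and HCT116 wt/GFP, were each grown flat as a monolayer and as spheroids, compact balls of many cells. Total RNA of each combination was hybridised to 1 array, so each culture condition had 2 arrays, 1 per line, and their number limits the precision of every value. The labels give no time in culture, no number of passages and no method of forming spheroids. They do not say how the GFP version was made, whether it is 1 clone, or whether an array stands for 1 culture or several. No sorting by a marker is described, so every value is an average over all cells of a culture, in which fewer cells carrying a transcript and less of it per cell cannot be told apart.

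These genes differ in where their products sit and what they do. CD24, CD44, PROM1, ALCAM and EPCAM encode surface glycoproteins that are used to sort carcinoma cells by antibody. DCLK1 encodes a kinase that binds microtubules and marks tuft cells, the rare chemosensory cells of normal gut epithelium. ALDH1A1 encodes a cytosolic enzyme that makes retinoic acid, MSI1 an RNA-binding protein, BMI1 a subunit of Polycomb repressive complex 1, and SOX9 a transcription factor of the crypt base, so the set is wider than surface markers. A raised or lowered transcript level in a whole culture is a different measure from the share of cells that an antibody would sort.

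In spheroids CD24, CD44 and ALCAM were higher by 2-fold or more, PROM1, SOX9 and EPCAM were higher by less than that, and DCLK1 was lower. Over all probe sets the median signal was 48.0 to 48.8 on monolayer arrays and 67.3 to 68.4 on spheroid arrays. The probe sets at the 3' end of the ACTB transcript exceeded those at its 5' end by 1.30-fold to 1.32-fold in monolayers and by 1.73-fold to 1.76-fold in spheroids. For GAPDH the same ratio was 0.90 and 0.87 in monolayers and spheroids of wt, and 0.88 and 0.95 in those of wt/GFP, without a common direction. The part of the ACTB shift in the results was not tested. Of 9 colon epithelial markers all 9 were tested, of which 5 rose and none fell with the deposited scaling, against 30.6% and 18.5% of all genes. VIL1, 1 of the 5, had a monolayer mean of 5.16, under the filter threshold of 5.48. It entered the test through its spheroid arrays, so a rise was built into its passing. After scaling to the hybridisation controls (transcripts added to the sample that do not come from the cells) 2 rose and 2 fell, against 7.48% and 28.1% of all genes. After median centring 2 rose and 1 fell, against 16.4% and 32.3%. KRT8, KRT18 and KRT19, keratins of simple epithelia, had signals from 16249 to 32967 on every array, whereas CDX2, a transcription factor of intestinal identity, had 33.1 to 81.6 and LGALS4, a galectin of gut epithelium, 13.9 to 62.5. The summed signal of the epithelial list was 70228 to 85431 in monolayers and 94252 to 95207 in spheroids. Of 5 immune genes on the array 3 had a mean below the filter level, including the pan-leukocyte gene PTPRC at 6.19 to 42.2. The list summed to 319 to 371 in monolayers and 282 to 288 in spheroids. CD79A, which passed the filter, was 166 to 245 over the 4 arrays and held most of that sum. Of 5 endothelial genes 4 had a mean below the filter level, including CDH5 at 2.78 to 57.1. The list summed to 146 to 183 in monolayers and 261 to 301 in spheroids. PECAM1, which passed the filter, was 103 to 189 over the 4 arrays and held most of that sum. Of 7 fibroblast genes 3 had a mean below the filter level, and the list summed to 480 to 491 in monolayers and 2511 to 4137 in spheroids. COL1A1, a collagen chain, held most of that sum and rose from 303 to 2275 in wt and from 338 to 3780 in wt/GFP, while DCN, a proteoglycan that defines fibroblasts, was 47.9 to 79.1 on all arrays. Of the tested fibroblast genes 3 of 4 rose, against 30.6% of all genes, COL1A1 under all 4 scalings and COL3A1 and FAP with the deposited scaling alone. The monolayer means of COL3A1 and FAP were under the filter threshold, so both entered the test through their spheroid arrays and a rise was built into their passing. Of 2 tested immune genes none rose, and the 1 tested endothelial gene did not pass. No marker of these lists was at 0, and the part of these cell types in the results was not tested.

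The promoters of the 3 genes that rose most and of the gene that fell are shown because these members moved in opposite directions. RefSeq windows on GRCh38.p14 were matched by symbol for 7 of the 10 genes, ALCAM, PROM1, CD24, ALDH1A1, BMI1, CD44 and DCLK1. Each sequence covers the 250 bases before the annotated transcription start on the strand of the gene, 5′ to 3′. Where a gene had several annotated starts, the window with the most motif matches is printed, and the arrays do not tell which start was used. Capitals mark matches on either strand to 6 short motifs. ACGTG is the core of the hypoxia response element and GCGTG its variant. CTTTGA is the core of the site of TCF and LEF factors, GGGCGG the site of Sp1, CCAAT the site of NF-Y and TATAAA the core promoter element at which TBP binds. Matches may overlap.
CD24, chr6:106974040-106974289, minus strand: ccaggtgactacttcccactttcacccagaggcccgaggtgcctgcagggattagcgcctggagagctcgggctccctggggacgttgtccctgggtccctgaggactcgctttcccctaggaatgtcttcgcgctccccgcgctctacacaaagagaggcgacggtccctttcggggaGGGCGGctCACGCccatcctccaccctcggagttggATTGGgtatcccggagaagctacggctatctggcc
CD44, chr11:35138921-35139170, plus strand: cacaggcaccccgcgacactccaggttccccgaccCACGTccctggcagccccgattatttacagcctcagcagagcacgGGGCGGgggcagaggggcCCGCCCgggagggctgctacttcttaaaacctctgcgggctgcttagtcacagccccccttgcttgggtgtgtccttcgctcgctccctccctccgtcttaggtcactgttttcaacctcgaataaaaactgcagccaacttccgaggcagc
ALCAM, chr3:105366659-105366908, plus strand: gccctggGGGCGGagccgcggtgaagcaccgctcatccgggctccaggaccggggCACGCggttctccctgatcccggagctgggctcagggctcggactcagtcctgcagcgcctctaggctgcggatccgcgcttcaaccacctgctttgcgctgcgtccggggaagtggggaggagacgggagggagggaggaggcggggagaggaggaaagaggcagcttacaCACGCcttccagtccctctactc
DCLK1, chr13:36131383-36131632, minus strand: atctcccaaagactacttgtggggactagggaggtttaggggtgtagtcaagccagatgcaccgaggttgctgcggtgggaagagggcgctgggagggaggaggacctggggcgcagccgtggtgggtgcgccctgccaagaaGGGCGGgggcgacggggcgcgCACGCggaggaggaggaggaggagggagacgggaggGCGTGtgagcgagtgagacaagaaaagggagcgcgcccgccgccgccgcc

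Either form of the hypoxia core was present in 43.2% of all 35116 windows, and GGGCGG in 42.6%. The printed windows of ALCAM and DCLK1 each held 2 hypoxia cores, and those of CD24 and CD44 held 1 each. The other 2 annotated windows of CD24 held none, and neither did the other 2 of DCLK1, while each of the 4 windows of PROM1 held 1. All 4 printed windows held GGGCGG, with 2 matches in CD44 and 1 in each of the others. One other CD24 window and both other DCLK1 windows held none, and choosing the window with the most matches favours such hits, so the printed windows are not a fair sample against all windows. CCAAT was found in the CD24 window and in 32% of all windows, whereas CTTTGA (11.2% of all windows) and TATAAA (10.7%) were in none of the 4 printed windows. In the printed windows a hypoxia core and GGGCGG were each present for CD24, CD44, ALCAM and DCLK1, and their part in the changes was not tested. A match of letters is a description and shows no binding.

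CD24, a small glycoprotein anchored in the membrane by a lipid, was 257 in wt monolayers and 1239 in wt spheroids. In wt/GFP it was 286 in monolayers and 1969 in spheroids. The lines started from similar signals, and both spheroid arrays lay far above both monolayer arrays. On the scale used for testing, log2(signal + 14.0), which understates changes of dim genes, CD24 rose by 2.47 ± 0.17 (moderated SE, 2 arrays per condition; limma adjusted p = 1.76e-12), or 5.53-fold. The change was 2.21 in wt and 2.72 in wt/GFP, and CD24 ranked 162 of 14349 genes from the top. CD24 was read by 6 probe sets, and all 6 were higher in spheroids in both lines. When every probe set was tested on its own, 5 of the 6 rose, with changes from 2.24 to 2.97. The dimmest, 209772_s_at, went from 13.3 to 54.6 in wt and from 49.1 to 126 in wt/GFP, a change of 1.24 ± 0.51 with adjusted p = 0.0503. The suffix of all 6 marks probes shared with other transcripts, so signal of near-identical CD24 copies cannot be separated from that of CD24 itself.

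CD44, the main receptor for the matrix polysaccharide hyaluronan, was 7399 in wt monolayers and 21876 in wt spheroids. In wt/GFP it was 7739 and 21634. The lines differed far less than the cultures. CD44 rose by 1.52 ± 0.12, or 2.87-fold (adjusted p = 3.30e-11), with 1.56 in wt and 1.48 in wt/GFP. Its 13 probe sets gave a wide range. Of the 9 that passed the filter 8 rose, and 204489_s_at rose by 2.03 ± 0.12, from 3304 to 15260 in wt and from 3463 to 12663 in wt/GFP. A dimmer set, 217523_at, rose by 2.41 ± 0.23, from 112 to 522 and from 99.0 to 741. At the other end, 229221_at had a value of 0.31 ± 0.17, with 486 and 609 in wt and 516 and 637 in wt/GFP, and did not pass (adjusted p = 0.151). CD44 is known for extensive alternative splicing, and the annotation used here does not say which exons each probe set reads. The other 4 probe sets stayed between 1.24 and 44.2 on all arrays and were not tested.

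ALCAM, an adhesion molecule of the immunoglobulin family, was 3619 and 7445 in monolayers and spheroids of wt, and 3634 and 9080 in those of wt/GFP. It rose by 1.18 ± 0.12, or 2.26-fold (adjusted p = 2.68e-09), with 1.04 in wt and 1.32 in wt/GFP. A second probe set, 201951_at, gave 1.14 ± 0.14, from 1628 to 2840 in wt and from 1459 to 4120 in wt/GFP. The dimmest, 1569362_at, had a mean below the filter level, at 7.63 to 44.7, and was also higher in the spheroids of each line. With all arrays scaled to the hybridisation controls, ALCAM had a value of 0.59 with adjusted p = 0.0795.

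**Figure D1:**
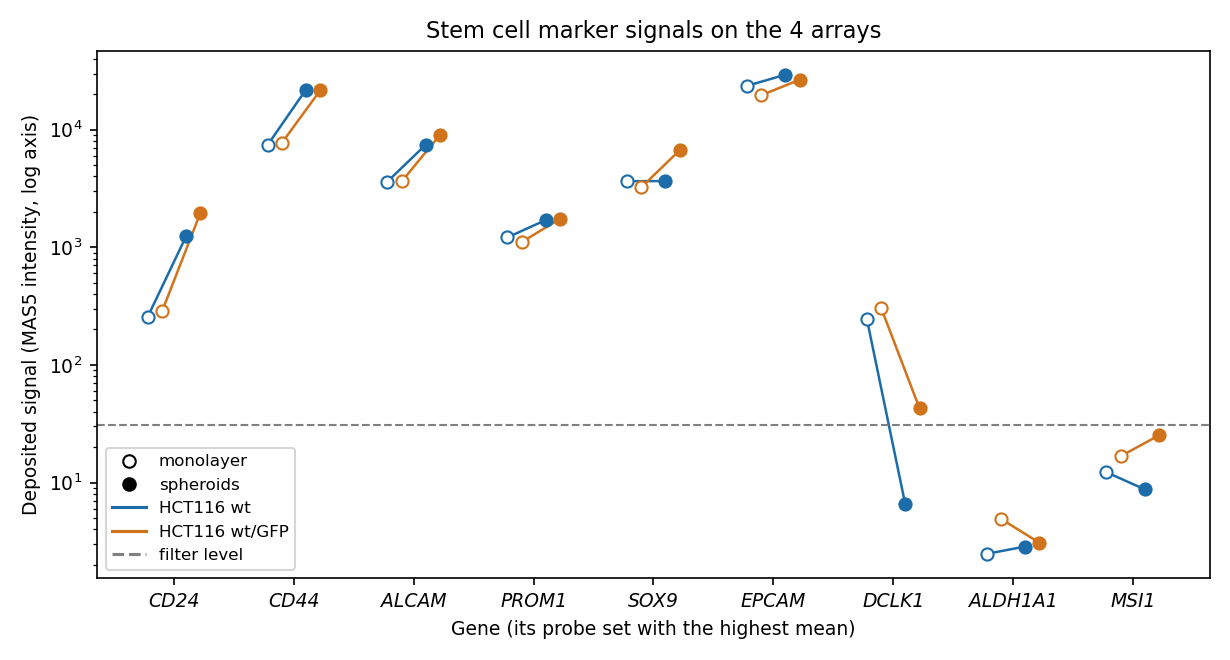
Deposited signal (vertical log axis) of the brightest probe set of each of 9 marker genes on the 4 arrays; open points are monolayers, filled points spheroids, lines join the arrays of 1 cell line, and the dashed line is the filter level, a signal of 30.6. CD24, CD44 and ALCAM are higher in spheroids of both lines, DCLK1 drops from 248 and 305 to 6.61 and 42.7, and ALDH1A1 and MSI1 lie below the filter level on all arrays.

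PROM1, a pentaspan glycoprotein of membrane protrusions, was 1212 and 1702 in monolayers and spheroids of wt, and 1106 and 1744 in those of wt/GFP. The groups did not overlap. It rose by 0.57 ± 0.13, or 1.48-fold (adjusted p = 0.000595). The median change of all genes was 0.23, and PROM1 had a value of 0.18 after median centring (adjusted p = 0.282) and -0.024 with the hybridisation controls as the scale (adjusted p = 0.966). Without the wt/GFP monolayer array its value was 0.50 with adjusted p = 0.0519.

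EPCAM, an adhesion molecule of epithelial cells, was 23547 and 29302 in monolayers and spheroids of wt, and 19611 and 26560 in those of wt/GFP. These are bright signals on every array. EPCAM rose by 0.38 ± 0.13, or 1.30-fold (adjusted p = 0.0172). The call ended without the cell line term (adjusted p = 0.0765) and without the wt/GFP monolayer array (0.24, adjusted p = 0.137), the wt spheroid array (0.31, adjusted p = 0.345) or the wt/GFP spheroid array (0.45, adjusted p = 0.181). Its value was -0.015 with median centring and -0.22 when scaled to the hybridisation controls.

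SOX9, a transcription factor of crypt progenitors, was 3641 and 3657 in monolayers and spheroids of wt, and 3245 and 6696 in those of wt/GFP. The wt arrays were nearly equal, and only the wt/GFP spheroid array was high. The fit gave a rise of 0.52 ± 0.15 (adjusted p = 0.00510), which joins 0.0064 in wt with 1.04 in wt/GFP. Without the wt/GFP spheroid array the value was 0.089 (adjusted p = 0.560), without the wt/GFP monolayer array it was 0.44 (adjusted p = 0.101), and without the cell line term the adjusted p was 0.0706. The second probe set, 202935_s_at, went from 1725 to 2054 in wt and from 1726 to 3474 in wt/GFP. Whether the lines differ in their SOX9 change was not tested, since each line had 1 array per condition. SOX9 had values of 0.13 with median centring (adjusted p = 0.516) and -0.067 when scaled to the hybridisation controls.

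DCLK1 was 248 in wt monolayers and 6.61 in wt spheroids. In wt/GFP it was 305 in monolayers and 42.7 in spheroids. Both monolayer arrays were high and both spheroid arrays low, and the wt spheroid array was the lower of these. In the fit DCLK1 fell by 3.08 ± 0.41 (adjusted p = 4.37e-07), with -3.67 in wt and -2.49 in wt/GFP. The wt spheroid signal lies under the pseudocount of 14.0 and under the filter level, so the size of the fall is set in part by the pseudocount and no fold is given. The fitted log2 change was -4.03 without a pseudocount and -2.05 with the median signal as pseudocount. The mean log2 signal of spheroids, 5.10, was under the filter threshold of 5.48, and DCLK1 entered the test through its monolayer mean of 8.17, so a difference was built into its passing. The fall rests on 1 probe set, 205399_at. The other 3 had means below the filter level, with signals of 7.70 to 39.6. Of these, 215303_at was lower in the spheroids of both lines, from 19.7 to 19.2 in wt and down to 7.70 in wt/GFP, while 229800_at and 230962_at were higher in wt spheroids and lower in wt/GFP spheroids.

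**Figure D2:**
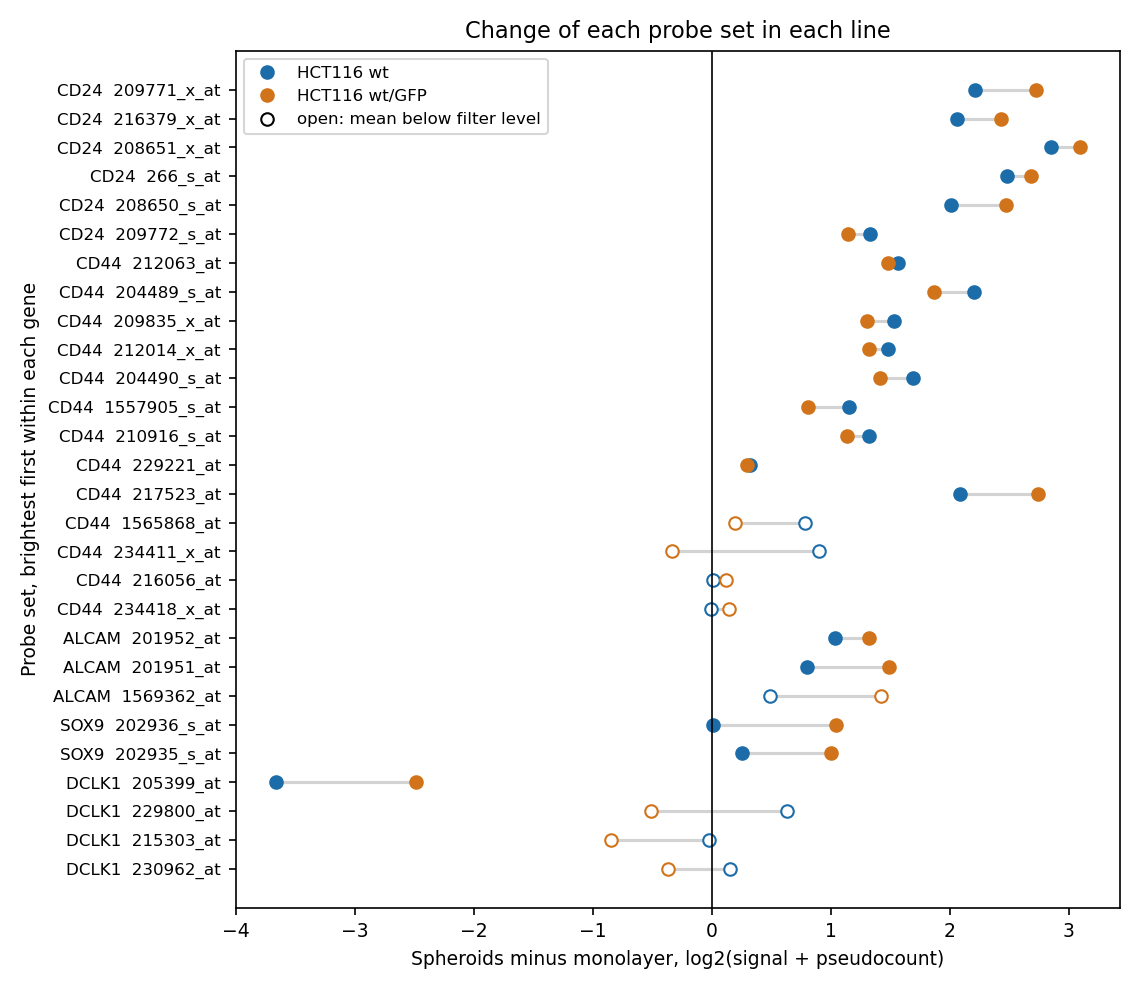
Change from monolayer to spheroids (horizontal axis, log2 units) of every probe set of CD24, CD44, ALCAM, SOX9 and DCLK1, with wt in blue, wt/GFP in orange and open points for probe sets with a mean below the filter level. All 6 CD24 sets lie right of 0, the 9 CD44 sets above the filter level spread from 0.31 to 2.41, and 1 of 4 DCLK1 sets lies far to the left.

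ALDH1A1 and MSI1 lay below the filter level on all arrays and were not tested. ALDH1A1 was 2.47 and 2.85 in monolayers and spheroids of wt and 4.90 and 3.08 in those of wt/GFP. MSI1 was 12.2 and 8.74 in wt and 16.8 and 25.2 in wt/GFP. Each gene had 1 probe set, its groups overlapped, and all values lay under the filter level of 30.6. Detection calls were not used here, so a signal this low is neither a level nor an absence.

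Of the 7 markers tested, 6 rose and 1 fell, against 30.6% of all 14349 genes that rose and 18.5% that fell. The markers were chosen with earlier results of these data known, which limits every comparison of their counts with all genes. The marker that fell, DCLK1, passed the filter through its monolayer arrays alone. A difference was thus built into its passing, which limits each count of a fall given here. At a change of at least 2-fold 3 markers rose and 1 fell, against 14.8% and 5.04% of all genes. In either direction 49.1% of all genes passed. Both spheroid arrays were above both monolayer arrays for 6 of the 7 markers and below them for 1, against 47.1% and 26.5% of all genes. For SOX9, 1 of the 6, this rests on nearly equal wt signals of 3641 in monolayers and 3657 in spheroids. The median change of the 7 was 0.57, beside 0.23 for all genes. Of the 32 probe sets 22 were tested on their own, and of these 19 rose and 1 fell, against 26.6% and 16.1% of 27038 probe sets. CD24 and CD44 make up 15 of the 22 through their many probe sets, which read the same transcripts and are not independent.

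The number of markers called higher changed with the scaling of the arrays. With the signals as deposited 6 rose, and 6 again after quantile normalization, against 30.6% and 23.5% of all genes. After median centring CD24, CD44 and ALCAM rose, against 16.4% of all genes, while scaling to the hybridisation controls left CD24 and CD44, against 7.48%. DCLK1 fell under each, against 18.5%, 20.9%, 32.3% and 28.1% of all genes with the deposited scaling, quantile normalization, median centring and the hybridisation controls. CD24 and CD44 rose under all 4 scalings, against 7.49% of the 14319 genes tested under each. DCLK1 fell under all 4, against 17.2%, with the limit that it passed the filter through its monolayer arrays alone. CD24 ranged from 1.88 to 2.47 over these scalings, CD44 from 0.93 to 1.61, and DCLK1 from -3.67 to -3.08.

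**Figure D3:**
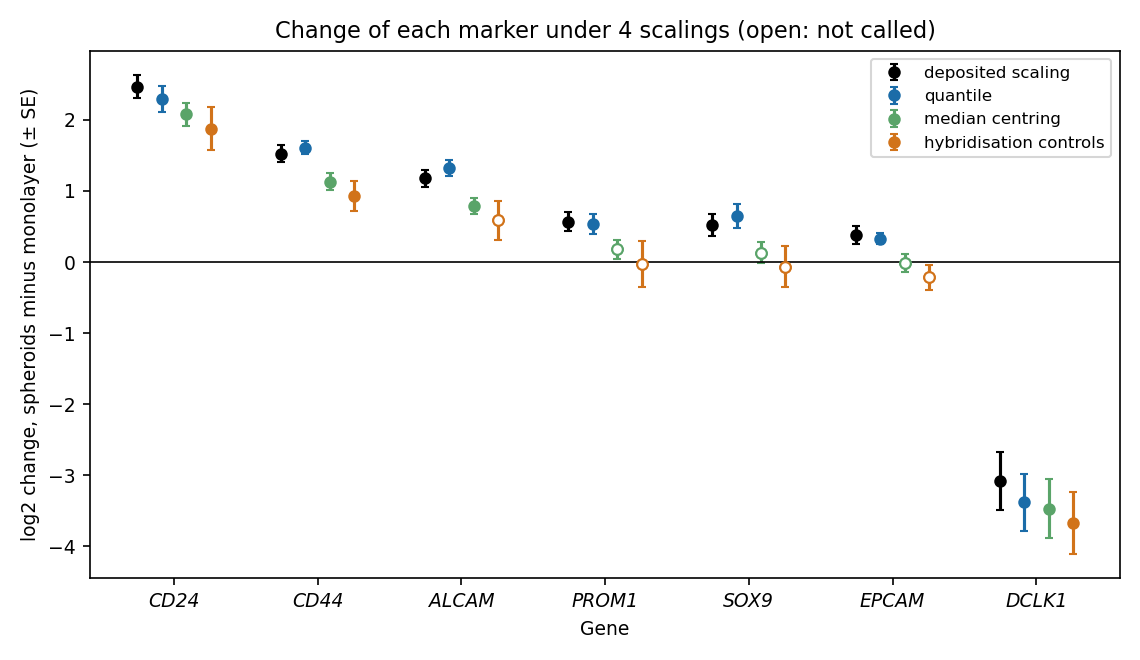
Change from monolayer to spheroids (vertical axis, log2 units ± moderated SE, 2 arrays per condition) of the 7 tested markers under 4 scalings; open points did not pass an adjusted p of 0.05. CD24, CD44 and DCLK1 are filled under all 4, whereas PROM1, SOX9 and EPCAM are open and near 0 with median centring or hybridisation controls as the scale.

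A difference of 2 log2 signals within an array is free of the scaling of that array apart from the pseudocount. Relative to EPCAM, used as an epithelial reference, CD24 changed by 1.90 log2 units in wt and 2.29 in wt/GFP, CD44 by 1.25 and 1.04, and ALCAM by 0.72 and 0.88. PROM1 changed by 0.17 and 0.21 relative to EPCAM, and SOX9 by -0.31 in wt and 0.60 in wt/GFP. These differences show unequal change and not which of the genes in a ratio moved. With 2 arrays against 2 and the pairing by line ignored, an exact two-sided permutation test of a single value cannot go below p = 0.333. Shuffling within lines allows fewer arrangements and has a higher lowest p, so no such test is given.

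None of the 7 markers passed between wt/GFP and wt in limma (lowest adjusted p = 0.719, for CD24), against 0.0279% of all genes. At an unadjusted limma p under 0.05 there were 3 of the 7. The share of all genes at that looser level is not given here, so the 3 cannot be set beside the 0.0279%. These were CD24, which was 0.41 ± 0.17 higher in wt/GFP, SOX9 at 0.35 ± 0.15 and DCLK1 at 0.87 ± 0.41. For each, the wt/GFP spheroid array was above the wt spheroid array. In monolayers SOX9 went the other way, at 3641 in wt and 3245 in wt/GFP. The DCLK1 spheroid signals were 6.61 in wt, under the pseudocount, and 42.7 in wt/GFP. With 1 residual degree of freedom, a missed threshold does not show that the lines were alike.

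The 3 genes with the pattern most like that of CD24 over the 4 arrays, by root mean square difference of centred log2 signals, were CCDC92 at 0.015, ITPR2 at 0.055 and LOC100289495 at 0.078. CCDC92 changed by 2.24 in wt and 2.75 in wt/GFP. For DCLK1 they were PRMT7 at 0.29, CLN6 at 0.43 and TMPO-AS1 at 0.46. PRMT7 changed by -3.17 in wt and -1.83 in wt/GFP. Over 4 arrays such likeness mostly restates a similar size of change in both lines.

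Further genes were counted in 8 lists written around the markers, also with earlier results of these data known. Their counts stand, with that limit, beside the 30.6% of all genes that rose, the 18.5% that fell and the median change of 0.23. Counts are for the deposited scaling unless another is named, and a count under all 4 scalings stands beside 7.49% of genes that rose and 17.2% that fell under all 4. After median centring 16.4% of all genes rose and 32.3% fell, with a median change of -0.17. After scaling to the hybridisation controls 7.48% rose and 28.1% fell, with a median of -0.37. List values on either scale stand beside these and not beside 0.23. Of 14 other proposed colon cancer stem cell markers tested, 8 rose and 1 fell (median 0.92), and 6 of them rose under all 4 scalings. DPP4, a surface peptidase, went from 95.6 to 631 in wt and from 91.5 to 656 in wt/GFP, a rise of 2.61 ± 0.24. KLF4, a transcription factor of differentiating gut epithelium, rose by 2.31 ± 0.12, LGR4, a receptor for R-spondins, by 2.07 ± 0.23 and CXCR4, a chemokine receptor, by 2.04 ± 0.25. ITGA6, a laminin-binding integrin chain, was the member that fell, by 0.31 ± 0.12, and it passed under 3 of the 4 scalings. ABCG2 and ABCB1, drug efflux pumps, had values of 0.13 and -0.035 and did not pass.

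Of 9 crypt stem cell genes tested, 6 rose and 1 fell (median 0.73), but none rose under all 4 scalings. TNFRSF19, a Wnt-induced receptor, rose by 1.65 ± 0.46 from 25.6 to 116 in wt and from 34.1 to 129 in wt/GFP, but its monolayer mean of 5.45 was under the filter threshold of 5.48, so a rise was built into its passing. LRIG1, an inhibitor of ERBB receptors, rose by 1.16 ± 0.28, ZNRF3, a ligase that removes Wnt receptors, by 0.83 ± 0.15, and RGMB, a BMP co-receptor, by 0.73 ± 0.16. CDCA7, a gene of cycling cells, fell by 1.28 ± 0.12, under all 4 scalings. LGR5, the marker that defines crypt base columnar stem cells, was 1.76 and 19.3 in monolayers and spheroids of wt and 14.7 and 28.2 in those of wt/GFP. With ASCL2, OLFM4 and HOPX it lay below the filter, so these genes of the normal crypt base were too dim to test.

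Among partners of CD44, 5 of 12 tested genes rose and 1 fell with the deposited scaling (median 0.49), 4 rose and 4 fell after median centring, and 1 rose and 2 fell after scaling to the hybridisation controls (median -0.10). ESRP1, the splicing factor that favours epithelial CD44 isoforms, went from 2356 to 5814 in wt and from 2024 to 4821 in wt/GFP, a rise of 1.27 ± 0.12 that passed under 3 of the 4 scalings. ADAM10, a protease that sheds the CD44 ectodomain, rose by 1.29 ± 0.12 under all 4. HAS3, a hyaluronan synthase, rose by 0.83 ± 0.12 under 3. HMMR, another hyaluronan receptor and a spindle protein, fell by 2.30 ± 0.11, from 10860 to 2215 in wt and from 8216 to 1652 in wt/GFP. The linkers of CD44 to actin did not pass with the deposited scaling, with values of 0.19 for EZR, -0.061 for MSN and -0.065 for RDX. RDX fell under 2 of the 4 scalings, at -0.46 after median centring and -0.66 with the hybridisation controls. MSN fell under 1, and EZR passed under none.

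Among 5 tested partners of EPCAM and CD24, 3 rose and none fell (median 0.43, or -0.16 after scaling to the hybridisation controls). CD9, a tetraspanin that associates with EPCAM, rose by 1.17 ± 0.13 under all 4 scalings. CLDN7, the claudin bound by EPCAM, rose by 0.43 ± 0.13, with 0.70 in wt and 0.16 in wt/GFP, and its groups overlapped. LYN, a kinase coupled to CD24, rose by 0.47 ± 0.12 and passed under 2 of the 4 scalings. After scaling to the hybridisation controls CLDN7 and LYN had values of -0.16 and -0.12. The other tested members, PSEN2 and FHL2, which act in EPCAM cleavage signalling, had values of -0.049 and 0.16 and did not pass, although FHL2 passed after quantile normalization at 0.30.

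Of 8 close relatives of the markers tested, 5 rose and none fell with the deposited scaling (median 0.93). ALDH1A3, a relative of ALDH1A1 in retinoic acid synthesis, went from 7935 to 17093 in wt and from 6773 to 14913 in wt/GFP, a rise of 1.12 ± 0.12 that passed under 3 of the 4 scalings. MSI2, the relative of MSI1, rose by 0.82 ± 0.12, also under 3. SOX4 and SOX8 rose by 2.06 ± 0.12 and 2.22 ± 0.20 under all 4. PROM2 rose by 0.58 ± 0.21 with the deposited scaling alone and had a value of -0.013 on the scale of the hybridisation controls, and ALDH1B1 had a value of -0.34 (adjusted p = 0.0541) and fell under the 3 other scalings, with values of -0.93 to -0.46. DCLK2, DCLK3 and DCX, the relatives of DCLK1, were below the filter level.

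BMI1 was not analysed, but 13 genes of Polycomb repressive complex 1 and its target were, of which 7 rose and 3 fell with the deposited scaling (median 0.33). After median centring 3 rose and 6 fell, and after scaling to the hybridisation controls 0 rose in limma, also at an unadjusted p under 0.05, and 5 fell (median -0.26). CBX7, a chromodomain subunit, rose by 0.95 ± 0.19, PHC3 and PHC1, polyhomeotic subunits, by 0.78 ± 0.13 and 0.69 ± 0.17, and PCGF5, a relative of BMI1, by 0.77 ± 0.12. No gene of the list rose under all 4 scalings. PCGF6, a subunit of a variant complex, fell by 1.18 ± 0.13, CDKN2A, the locus that BMI1 represses, by 0.70 ± 0.13 and CBX2 by 0.42 ± 0.16, and these 3 fell under all 4 scalings. PCGF1, another relative of BMI1, had a value of -0.49 and fell under the 3 other scalings.

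Of 5 tuft cell genes tested beside DCLK1, 3 rose and none fell (median 0.82). ALOX5, a lipoxygenase, rose by 1.92 ± 0.35 under all 4 scalings, from 74.1 to 276 in wt and from 32.4 to 189 in wt/GFP, and AVIL and PTGS1 by 0.97 ± 0.35 and 0.82 ± 0.32 with the deposited scaling alone. POU2F3 and TRPM5, which define tuft cells, had means below the filter level, at 2.32 to 32.0 and 2.97 to 12.7.

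Of 8 tested genes of differentiated colon cells, 2 rose and none fell with the deposited scaling (median 0.15), 1 rose and 2 fell after median centring, and 1 rose and 1 fell with the hybridisation controls (median -0.44). KRT20, a keratin of mature colonocytes, went from 112 to 798 in wt and from 155 to 832 in wt/GFP, a rise of 2.51 ± 0.21 under all 4 scalings. VIL1, the microvillus protein villin, rose by 1.42 ± 0.54 with the deposited scaling alone, from 16.1 to 90.7 and from 28.8 to 73.6, and it too passed the filter through its spheroid arrays alone. CA1, a carbonic anhydrase of colonocytes, had a value of -0.99 with the deposited scaling and fell under the 3 others, with values of -1.58 to -1.38. Among those below the filter were MUC2 of goblet cells and CHGA of endocrine cells. KRT20 thus rose on the same arrays as CD24 and CD44.

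**Figure D4:**
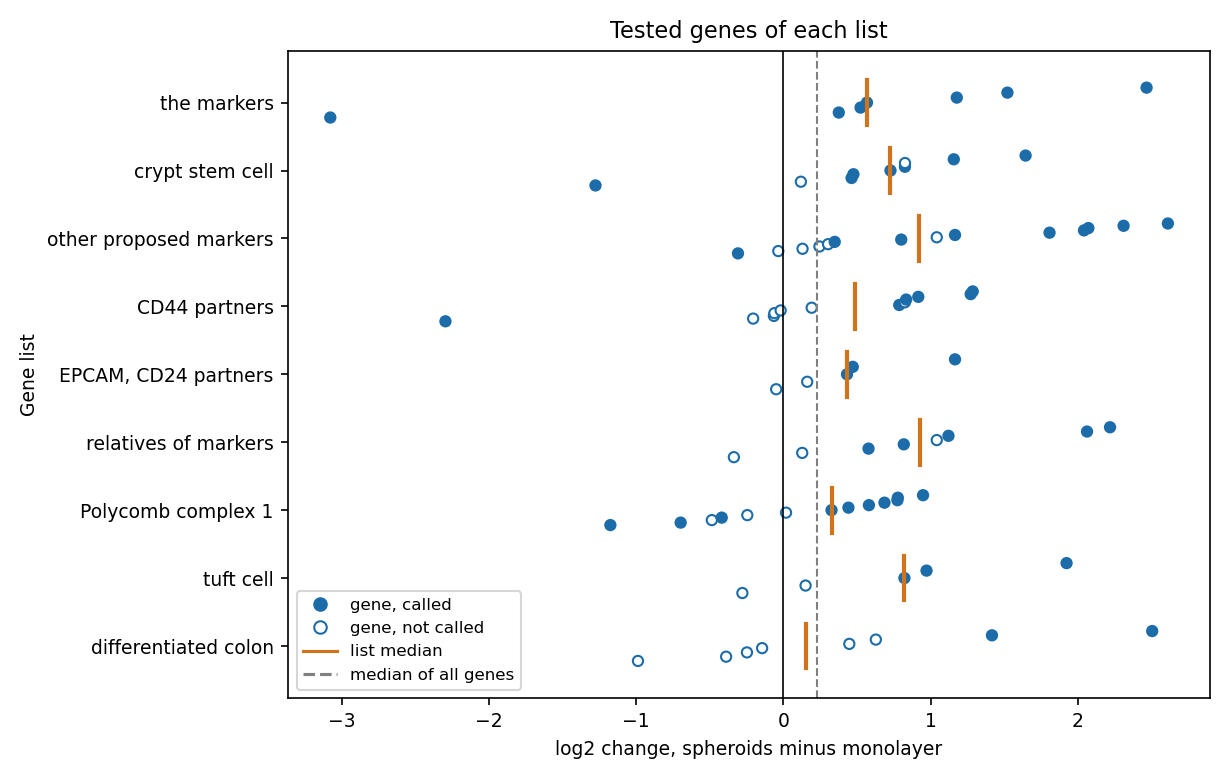
Change from monolayer to spheroids (horizontal axis, log2 units) of each tested gene in the marker set and in 8 lists; filled points passed an adjusted p of 0.05, orange bars are list medians, and the dashed line is the median of all genes, 0.23. DCLK1 at -3.08 is the lowest point of any list, and the list medians run from 0.15 for differentiated colon genes to 0.93 for relatives of the markers.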

How the data were processed

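The deposited table holds 1 column per array with intensities on a linear scale, which the authors made with MAS5, per the submitters' processing notes; its version was not given in the sources used here. The trimmed mean, leaving out 2% at each end, was 499.9 on every array. Symbols came from the platform annotation, updated by gene identifier: 41091 probe sets had 1 symbol, 1801 several and 11721 none, and 62 were controls. Signals were used as log2(signal + 14.0), the 25th percentile. Probe sets with a mean above the 40th percentile (5.48) were kept, 27038 with a symbol, and each gene took the one with the highest mean.

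limma 3.58.1 in R 4.3.3 fitted culture and cell line over 4 arrays, with trended moderation (1 residual and 25.9 prior degrees of freedom) and two-sided Benjamini-Hochberg adjustment over all genes, or over all probe sets for probe set values. A call is an adjusted p under 0.05. Nothing states how many cultures lie behind an array, so the p-values rest on the disagreement between the lines, moderated across genes, and may be partly technical. With 25.9 prior degrees of freedom beside 1 residual, the error of each gene came mostly from the trend over all genes. The disagreement between the lines in that gene itself had little weight. Pairing follows the cell line in the labels (the title of the wt/GFP spheroid sample gives GFP and wt in another order than its other labels, which read wt/GFP and were followed); the line difference in monolayers had r = 0.00684 across genes with that in spheroids. The procedure was run on simulated data with independent noise, no difference between lines and no shift in scaling. That run cannot speak to the effect of scaling or of the lines in the real arrays.

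All markers were named with every probe set. In lists of partners, relatives and Polycomb any tested gene could be named, in others up to 4 called genes per direction; further genes there (ABCB1, ABCG2, LGR5, ASCL2, OLFM4, HOPX, POU2F3, TRPM5, MUC2, CHGA, CA1) were chosen after their values were seen. Markers and lists were chosen with earlier results of these data known. Of 112 list genes 102 were on the array under 1 symbol and 72 were tested. Alternatives were quantile normalization, median centring, 18 hybridisation controls, other pseudocounts and filters, other probe set rules, no line term, other moderation, a 2-fold threshold and leaving out each array.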

Additional observations from a re-analysis of the deposited data

Results flagged for a closer look

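In 6 probe sets of the markers the lines moved in opposite directions between monolayer and spheroids. All 6 have a mean below the filter level, the difference between the lines was not tested, and each line has 1 array per condition. For CD44 set 234411_x_at the change in wt/GFP minus that in wt was -1.24 log2 units, from 0.90 in wt and -0.34 in wt/GFP. For DCLK1 set 229800_at it was -1.15, from 0.63 and -0.52, and for DCLK1 set 230962_at -0.52, from 0.15 and -0.37. For MSI1 it was 0.56, from -0.21 and 0.35. For ALDH1A1 it was -0.18, from 0.033 and -0.15, and for CD44 set 234418_x_at 0.15, from -0.0082 and 0.14.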

How the results depend on the processing

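CD24 and DCLK1 kept their direction and call under the 16 alternatives that gave them a value, and CD44 under 17. CD24 ranged from 1.88 to 2.80, CD44 from 0.93 to 1.61 and DCLK1 from -4.03 to -2.05. Without the variance trend the limma adjusted p was far higher, at 0.029 for CD24, 0.029 for CD44 and 0.030 for DCLK1. ALCAM lost its call after scaling to the hybridisation controls. The count of 6 markers that rose became 3 after median centring, 2 after scaling to the hybridisation controls, 3 without a variance trend and 3 at a 2-fold threshold. It was 2 without probe sets shared between transcripts, a setting that leaves out CD24, PROM1, EPCAM and SOX9. Leaving out 1 array, which also drops the line term, gave 3 to 6, with 3 without the wt/GFP monolayer array. The count of 1 marker that fell became 0 with a filter at the 60th percentile, which removes DCLK1, as did the count of its probe sets. The 19 probe sets that rose became 11 after scaling to the hybridisation controls and were 16 to 18 when 1 array was left out. Signs turned for PROM1 (-0.024), EPCAM (-0.22) and SOX9 (-0.067) after scaling to the hybridisation controls and for EPCAM (-0.015) after median centring. Both scalings move all log2 signals of an array by the same amount. The median change of all genes was -0.37 and -0.17 under them, beside 0.23 as deposited, and the values named stayed above it. Which scaling is nearest to the true change was not tested. Without the replicate block, that is the cell line term, 4 markers rose and 1 fell, and EPCAM and SOX9 lost their calls. SOX9 also lost its call with robust moderation (adjusted p = 0.219). No filter left 4 rising markers. Calls over all genes, in either direction, changed too. They were 7050 of 14349 as reported, 3820 without a variance trend, 6627 without the line term and 2841 at a 2-fold threshold. They were 6130 of 19775 without a filter and 5090 of 11468 without shared probe sets. The shares for each scaling are given above, and those of all probe sets under the alternatives are not given here. The count of 0 markers called between the lines held under 12 alternatives; without the line term it cannot be computed. Signals below the filter level limit DCLK1, ALDH1A1 and MSI1.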
